A study of Mus musculus with 20 samples.

Results

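The 10 genes described here are the immunoglobulin heavy chain constant genes Igha, Ighm, Ighg1, Ighg2b, Ighg2c and Ighg3, the light chain constant genes Igkc, Iglc1 and Iglc2, and Jchain, among 53379 genes counted in each of 20 RNA-seq libraries. They were chosen by symbol, with their levels in these libraries already known, and each symbol matched 1 Ensembl gene in both count tables. The levels therefore describe these libraries, and the tests below, taken from fits over all genes, support nothing about why the 10 were chosen. The libraries were made from long-term hematopoietic stem cells (LT-HSCs), the bone marrow cells at the top of blood formation, sorted after lineage depletion as CD150+ cells lacking CD48 and CD135 within the Lin- Sca-1+ CD117+ fraction. All mice were C57BL/6. Young mice were 16 weeks old, with 4 Phf6-WT and 4 Phf6-KO libraries, and aged mice were 24 months old, with 6 Phf6-WT and 6 Phf6-KO libraries. Phf6 encodes a chromatin-binding protein. The sources used here do not give the allele, any Cre line or whether a library was 1 mouse or a pool, so p-values measure the spread between libraries.

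An antibody is built from a heavy chain and a light chain, each joining a variable segment, which was recombined from germline DNA in 1 B cell clone, to a constant region. A naive B cell makes IgM, encoded by Ighm, and IgD, encoded by Ighd, from the same rearranged locus. Class switching later replaces them with an IgG, IgA or IgE constant gene, and plasma cells, the secreting end stage, hold very large amounts of this RNA. Jchain encodes the joining chain that links IgA dimers and IgM pentamers. Stem cells carry these loci unrearranged. The question put to the data was whether the members move together, as RNA of plasma cells would.

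On build GRCm38 the heavy chain members lie on the minus strand of chromosome 12, from Igha at chr12:113254830-113260236 to Ighm at chr12:113418558-113422730, with Ighg2c, Ighg2b, Ighg1 and Ighg3 between them. Igkc lies on the plus strand at chr6:70726435-70726966, and Iglc1 and Iglc2 on the minus strand at chr16:19061618-19062071 and chr16:19198396-19200351. Jchain lies on the minus strand at chr5:88519809-88527891. Positions and exon lengths came from GENCODE M21, which need not be the annotation the counts were made with. The 4 IgG genes resemble each other, and so do the lambda genes, though Iglc1 does so less closely. The first 60 bases of their annotated constant transcripts are therefore shown, with capitals at every base where the copies of one set differ (for Iglc2, bases 2 to 61). Iglc3 is no member and is added because it is the near copy of Iglc2.
Ighg1: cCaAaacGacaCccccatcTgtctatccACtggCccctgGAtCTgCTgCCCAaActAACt
Ighg2b: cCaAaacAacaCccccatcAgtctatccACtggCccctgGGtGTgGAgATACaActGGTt
Ighg2c: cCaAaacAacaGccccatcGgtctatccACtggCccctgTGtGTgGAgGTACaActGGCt
Ighg3: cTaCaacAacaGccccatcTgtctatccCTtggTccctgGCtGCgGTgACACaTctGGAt
Iglc1: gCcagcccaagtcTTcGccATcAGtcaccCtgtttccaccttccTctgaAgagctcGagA
Iglc2: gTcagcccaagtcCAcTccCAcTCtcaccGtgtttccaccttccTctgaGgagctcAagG
Iglc3: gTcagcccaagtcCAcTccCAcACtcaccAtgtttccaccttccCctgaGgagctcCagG
In this window 22 of 60 bases differed among the IgG genes and 13 of 60 among the lambda genes. Over the aligned constant transcripts Ighg2b and Ighg2c were 83.8% identical, the closest of the IgG pairs, and Iglc2 and Iglc3 were 95.4% identical. Iglc1 was 68.8% identical to Iglc2 and 68.7% to Iglc3. Of all 50-base words in its exons, Iglc2 shared 7.65% with Iglc3, Ighg2c shared 5.49% with Ighg2b, and Ighg2b shared 4.15% with the other IgG genes. Igha, Ighm, Igkc and Iglc1 shared none with any other annotated transcript. Reads of Iglc2, Ighg2b and Ighg2c are therefore uncertain to that extent. The library kit does not mark strand. Igkc and Iglc1 each lie within the span of another gene, with 0 exon bases in common, and Iglc2 shares 38 exon bases with Iglj2, which had a count of 0 in every library.

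Library totals ran from 6293783 to 19297867 counts in the young libraries and from 10869693 to 18665344 in the aged. Phf6 itself ran from 15.9 to 21.0 CPM (counts scaled to the library total) in the young KO against 95.8 to 133 in the young WT, and from 15.6 to 52.3 in the aged KO against 114 to 135 in the aged WT; aged KO replicates 5 and 6 were at 52.3 and 51.8. All levels here are CPM with TMM, a factor that corrects for library composition. All 14 LT-HSC identity genes listed, Slamf1 and Procr among them, averaged at least 1 CPM in every group. Each age was deposited as its own table, so age cannot be told apart from anything else that differed between the tables.

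Igkc, the constant region of the kappa light chain, was present in every library. In young WT it was 46.8, 17.7, 1.32 and 18.8 CPM in replicates 1 to 4, and in young KO it was 3.89, 6.45, 10.4 and 71.1 CPM. In aged WT its lowest, median and highest values were 76.1, 150 and 230 CPM, and in aged KO they were 65.3, 286 and 748 CPM. The group means ordered as young WT (21.1 ± 18.9 CPM, SD, n = 4), young KO (23.0 ± 32.2, n = 4), aged WT (152 ± 64.5, n = 6) and aged KO (364 ± 275, n = 6). The 2 young groups did not differ beyond their spread, all aged WT libraries lay above all young WT libraries, and the aged KO libraries spanned the aged WT range on both sides. Aged KO replicate 3, the lowest, lay below young KO replicate 4, without which the young KO mean was 6.92 CPM.

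The lambda light chain genes were low in most libraries, and single libraries stood out. Iglc1 was 26.9 CPM in aged WT replicate 2 (311 counts) and 26.7 CPM in aged KO replicate 2 (414 counts), against 0.638 CPM or less in the other aged libraries. Iglc2 lay between 0.127 and 0.974 CPM in aged WT, between 0.453 and 2.87 in aged KO, between 0.239 and 4.89 in young WT and between 0.122 and 1.95 in young KO. Iglc3, the near copy outside the set, held 377 counts in aged KO replicate 1 and at most 28 elsewhere. As a share of all light chain constant counts, lambda made up 17.5% to 38.9% in young WT and 6.87% to 29.0% in young KO. In the aged libraries it made up 0.407% to 0.952%, except in aged WT replicate 2 with 17.9% (95% Wilson interval 16.2% to 19.8%), aged KO replicate 1 with 4.69% (4.27% to 5.14%) and aged KO replicate 2 with 3.80% (3.47% to 4.16%). Such intervals cover counting error only, since reads copied by PCR without molecular identifiers are not independent molecules.

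Igha, the constant region of IgA, was close to absent in the young libraries and among the highest members in the aged. The young WT libraries held 2, 0, 1 and 0 counts and the young KO libraries 2, 0, 2 and 0. Aged WT ran from 69.0 through a median of 100 to 338 CPM, or 890 to 4663 counts. Aged KO ran from 3.30 through 355 to 1140 CPM, or 51 to 17699 counts. No aged library overlapped the young range, and the lowest aged library, KO replicate 3, was well apart from the next, aged WT replicate 4 at 69.0 CPM.

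Jchain had its group means in the same order as Igkc. It was 0.652, 0.680, 0.239 and 0.257 CPM in the young WT libraries and 0.608, 0.496, 0.319 and 7.57 CPM in the young KO libraries. In aged WT it ran from 25.2 through 38.2 to 77.8 CPM and in aged KO from 2.2 through 64.2 to 275 CPM. Its group means were 0.457 ± 0.241, 2.25 ± 3.55, 43.3 ± 21.3 and 91.7 ± 95.5 CPM in young WT, young KO, aged WT and aged KO. Young KO replicate 4, with 62 counts, exceeded aged KO replicate 3, with 34, so the KO groups overlapped and the WT groups did not. The young KO mean without replicate 4 was 0.474 CPM.

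Ighm, the constant region of IgM, did not separate the ages. It was 44.5, 32.6, 14.6 and 34.0 CPM in young WT and 24.0, 23.6, 26.1 and 150 CPM in young KO. It ran from 2.09 through 23.5 to 164 CPM in aged WT and from 2.2 through 53.0 to 531 CPM in aged KO. Aged libraries lay both above and below the whole young range of their genotype: 2 above and 2 below among aged WT, 1 above and 2 below among aged KO. Without the highest library the mean was 24.6 CPM in young KO and 46.3 CPM in aged KO. Ighd, no member, was 0.479 to 21.2 CPM in young WT and 0.973 to 6.22 in young KO, while it was at 0 counts in 4 of 6 aged WT and 6 of 6 aged KO libraries.

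The IgG genes were set by single libraries. Ighg1 held 1649 counts (124 CPM) in aged KO replicate 1, 23 in aged WT replicate 1 and 0 in the other 18 libraries. Ighg2c held 858 counts (46.4 CPM) in aged KO replicate 4 and at most 11 elsewhere. Ighg3, encoding IgG3, held 385 counts (24.4 CPM) in aged WT replicate 4 and at most 1 elsewhere. Ighg2b was spread over more libraries: 1408, 727 and 565 counts in aged KO replicates 2, 3 and 6, 342 in aged WT replicate 3, and at most 50 in the rest. Each of the 8 young libraries held 0 counts of Ighg1, Ighg2c and Ighg3 and 0 to 6 of Ighg2b. A count of 0 over a group, taken as at most 3 counts, allows up to 0.0776 CPM in young WT and 0.0707 in young KO.

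**Figure D1:**
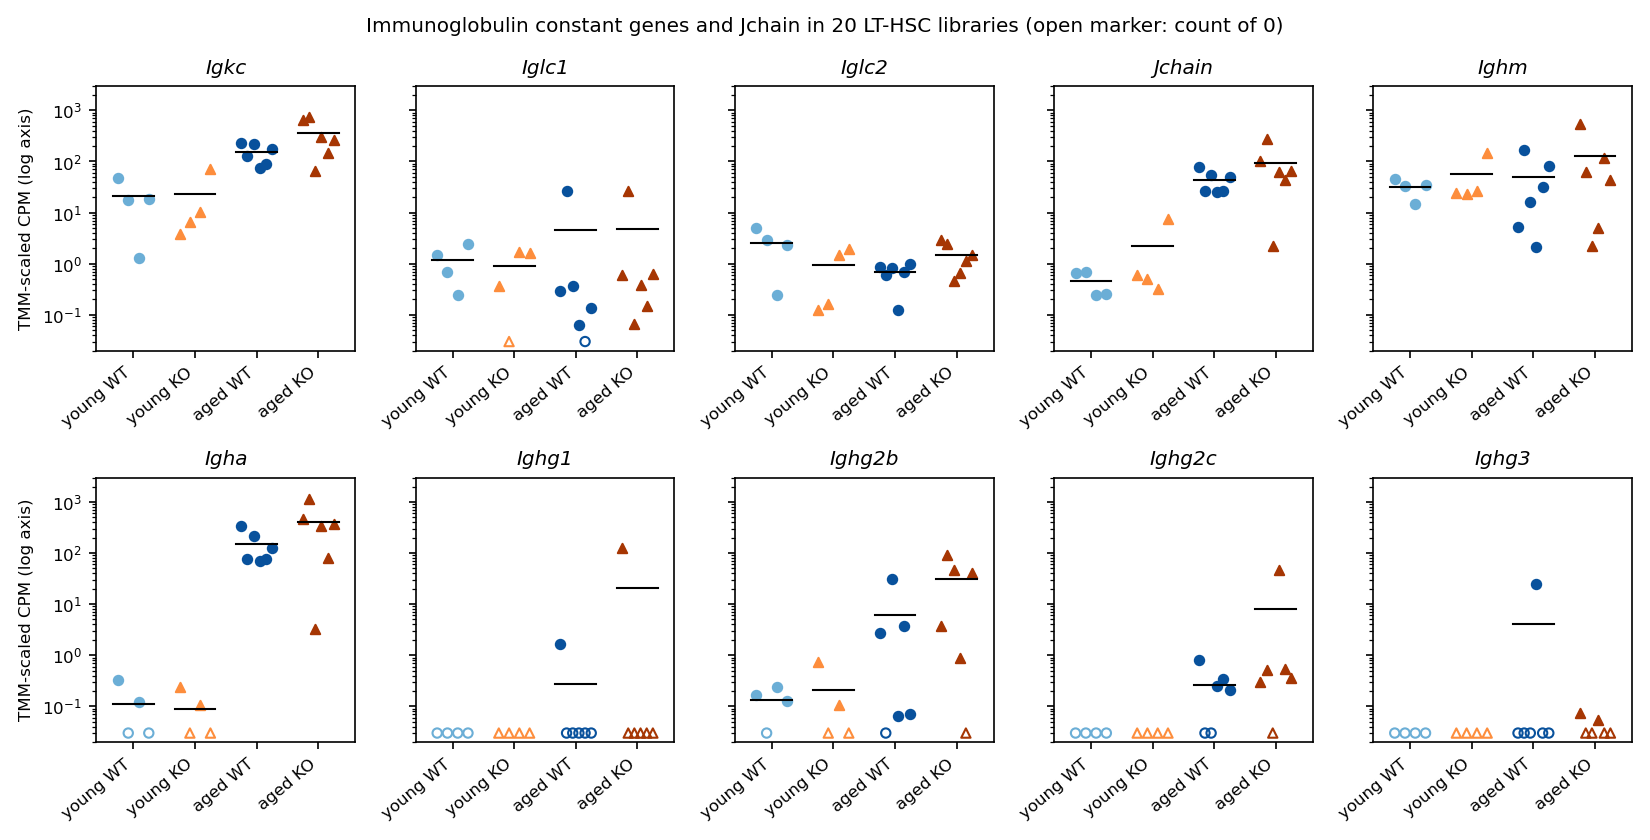
Level of each of the 10 genes in each library, in TMM-scaled CPM on a log axis, by group (4 young WT, 4 young KO, 6 aged WT and 6 aged KO libraries). Points are libraries, open markers at the bottom are counts of 0, and black lines are group means, left out where the mean falls below the open markers. Every aged library is above every young one for Igha, Igkc and Jchain overlap between ages through young KO replicate 4 and aged KO replicate 3, Ighm overlaps throughout, and Ighg1, Ighg2c and Ighg3 rest mainly on 1 library each.

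Levels of different heavy chain genes were compared per kilobase of exon, as shares of all heavy chain constant counts per kilobase. Ighm led in all 8 young libraries, with 67.5% to 95.2% in WT and 83.0% to 96.0% in KO, and Ighd made up most of the rest. Igha led in 5 of 6 aged WT libraries and in 3 of 6 aged KO libraries. The other aged libraries were WT replicate 2, led by Ighm with 75.1%, KO replicates 1 and 5, led by Ighm with 55.9% and 67.2%, and KO replicate 3, led by Ighg2b with 88.0%. Among IgG genes outside that library, Ighg3 reached 26.3% in aged WT replicate 4 and Ighg2c 21.2% in aged KO replicate 4. The highest IgG gene was thus not the same in all aged libraries.

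**Figure D2:**
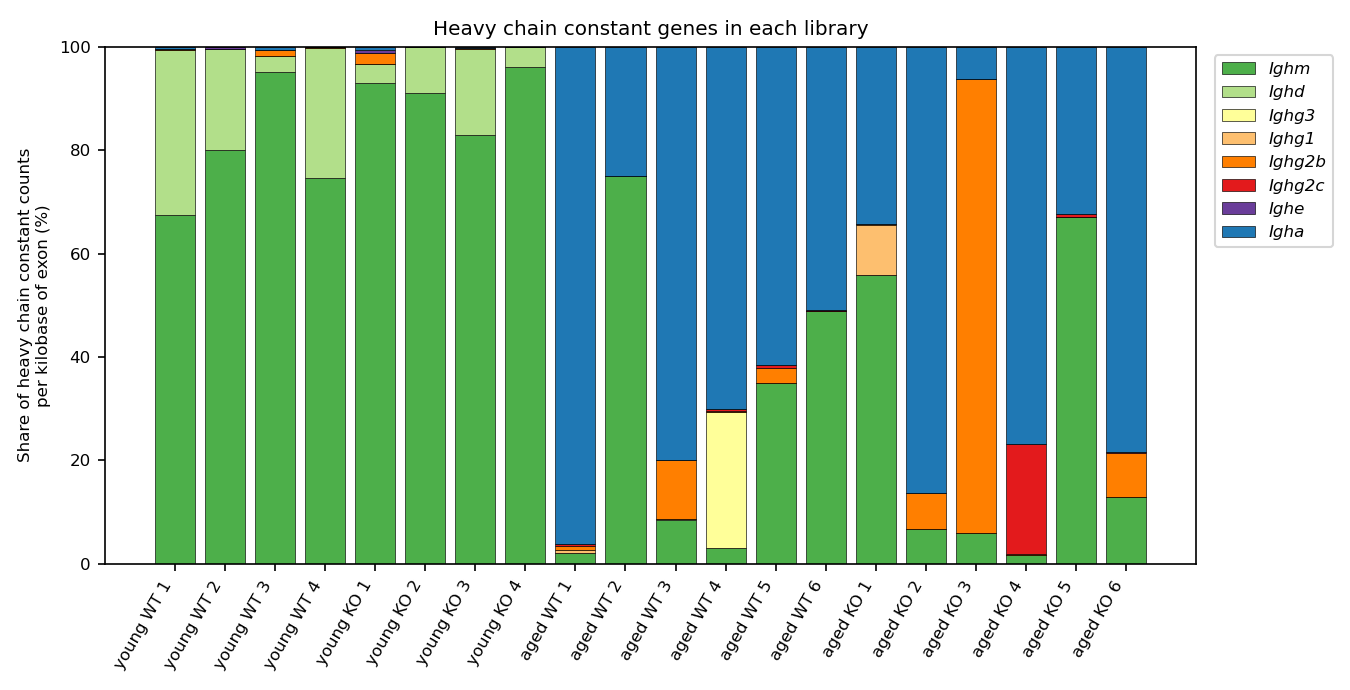
Share of heavy chain constant counts per kilobase of exon, in percent, for 8 constant genes in each of 20 libraries (bars sum to 100). Ighm with Ighd fills the young bars, while Igha leads 8 of 12 aged bars and the IgG shares differ from one aged library to the next.

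Variable segments are not members, and their counts describe the other end of the same kind of transcript. The tables listed 218 of them. Young libraries held 19 to 549 variable segment counts and aged libraries 542 to 6738. Kappa variable counts per 100 Igkc counts were 34.5 to 48.7 in aged WT, 34.1 to 54.3 in aged KO, 18.2 to 60.6 in young WT and 28.1 to 57.6 in young KO, so variable segment counts accompanied Igkc in every library.

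In the aged libraries few segments held most of the counts. The leading segment held 16.4% to 34.4% in aged WT and 7.33% to 76.8% in aged KO, and between 1 and 5 segments held 50% or more of the counts in each aged library except KO replicate 2, where it took 10. The lead differed between libraries: 9 segments led the 12 aged libraries. Igkv1-117 led in 3 of them (aged WT replicates 5 and 6, aged KO replicate 6) and Igkv8-30 in 2 (aged WT replicate 4, aged KO replicate 4). In aged KO replicate 3, Igkv6-23 held 513 of 668 counts (76.8%, 95% Wilson interval 73.4% to 79.8%), and with Ighv8-8 the share was 90.9%. That library was also the one led by Ighg2b and had the lowest Igkc, Igha and Jchain of the aged KO group.

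Variable segment counts were low in the young libraries, with 1 exception. The leading segment held 3 to 20 counts in 7 of the 8. Young WT replicate 3 and young KO replicates 1 and 2 held only 19, 29 and 30 counts, over 12, 19 and 17 segments. Such counts are too few to show whether they were spread over many segments. In young KO replicate 4, Igkv15-103 held 276 of 549 counts (50.3%, 46.1% to 54.4%) and Ighv7-1 a further 176, together 82.3%. This library also had the highest Igkc, Ighm and Jchain of the young groups, with Igha at 0 and Ighg2b at 0. To compare libraries of unequal depth, the number of segments expected in a draw of 150 counts was computed. It was 63.8 in young WT replicate 1, 53.9 in young WT replicate 4, 44.7 in young KO replicate 3 and 22.3 in young KO replicate 4. It was 9.21 to 25.4 in aged WT and 10.5 to 33.9 in aged KO, and the other 4 young libraries held fewer than 150 counts and were left out.

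The last 45 bases of 7 variable segments, up to the point where recombination joins the next segment, are shown because each led a library or, for Ighv7-1, came second to Igkv15-103 in young KO replicate 4, so that the leads can be compared as sequences. Capitals mark the codon of the conserved cysteine that ends the framework before the third hypervariable loop.
Igkv1-117: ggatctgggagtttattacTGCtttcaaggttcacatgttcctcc
Igkv8-30: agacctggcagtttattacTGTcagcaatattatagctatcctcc
Igkv6-23: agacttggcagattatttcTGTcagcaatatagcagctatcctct
Igkv6-15: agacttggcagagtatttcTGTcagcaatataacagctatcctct
Igkv3-2: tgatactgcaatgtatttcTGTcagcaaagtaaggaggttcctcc
Igkv15-103: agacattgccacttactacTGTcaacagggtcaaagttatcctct
Ighv7-1: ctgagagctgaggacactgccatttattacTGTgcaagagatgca
These genes lie on GRCm38 at chr6:68121046-68121827 (Igkv1-117, plus strand), chr6:70117061-70117620 (Igkv8-30, minus), chr6:70260409-70260955 (Igkv6-23, minus), chr6:70406469-70406992 (Igkv6-15, minus), chr6:70698449-70699067 (Igkv3-2, plus), chr6:68437440-68437925 (Igkv15-103, plus) and chr12:113896408-113896946 (Ighv7-1, minus). Igkv6-15 and Igkv6-23 are similar in this stretch. Igkv6-15 held 3 counts in aged KO replicate 3, where Igkv6-23 held 513, and 498 in aged KO replicate 6, where Igkv6-23 held 0, while aged WT replicate 3 held 238 and 208 of them. Igkv3-2 held 1471 counts in aged KO replicate 1, 441 in replicate 2 and 171 in replicate 5, and at most 5 in every other library. Ighv7-1 held 176 counts in young KO replicate 4 and at most 2 elsewhere.

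**Figure D3:**
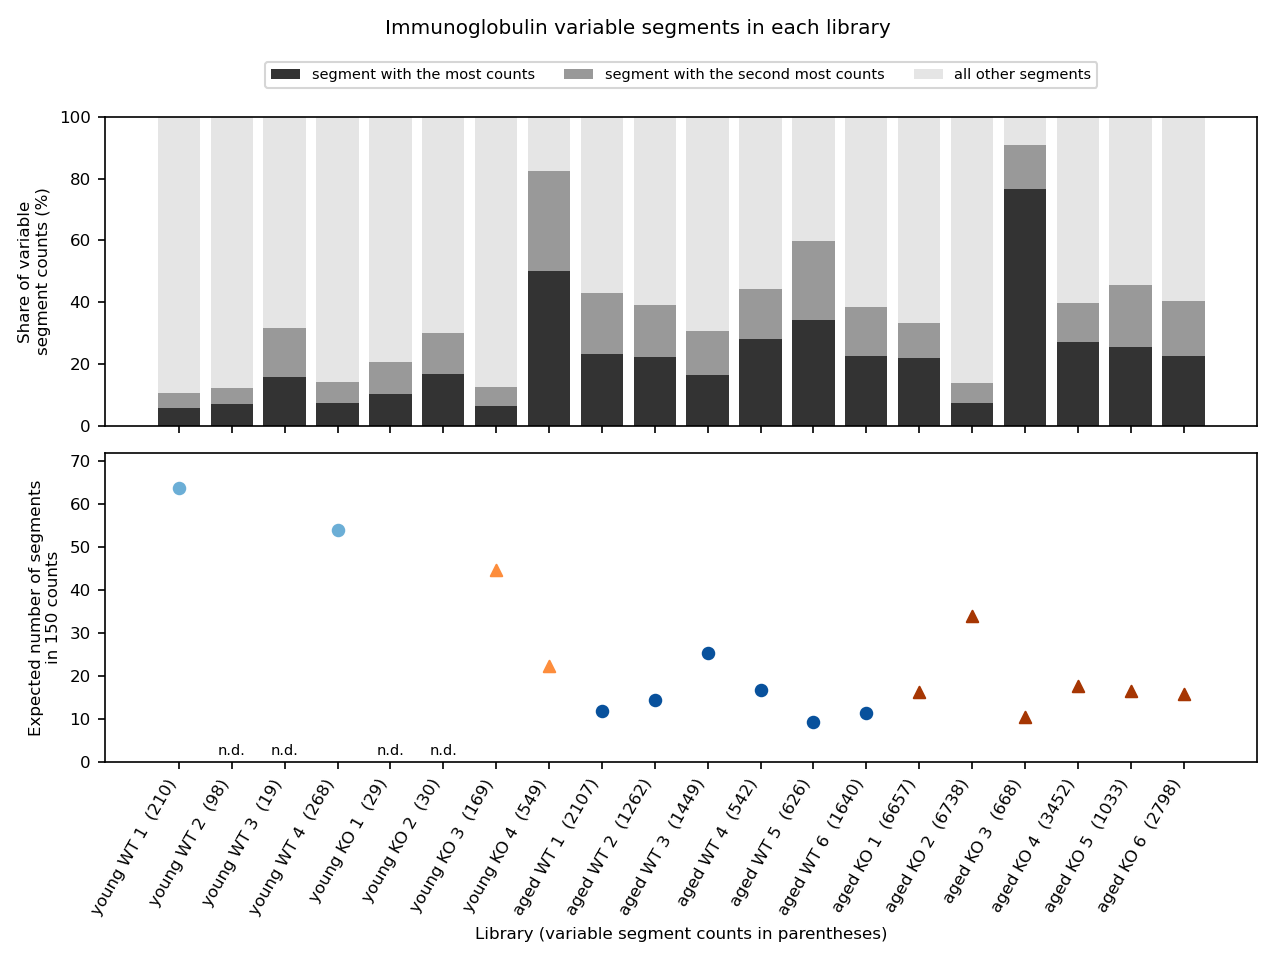
Top, share of variable segment counts in percent held by the first and second segments and by all others in each library. Bottom, expected number of segments in 150 counts, with n.d. for libraries with fewer counts; numbers in parentheses are variable segment counts. Young KO replicate 4 and aged KO replicate 3 have 82.3% and 90.9% of their counts in 2 segments, and young WT replicates 1 and 4 have the most segments at equal depth.

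Phf6 loss was compared first within the aged mice. None of the 6 members tested passed an adjusted p of 0.05 in edgeR's quasi-likelihood test with Benjamini-Hochberg adjustment over all genes, beside 11.7% of the 14973 genes tested. All 6 had higher means in aged KO, with a median log2 fold change of 1.31 beside 0.007 over all genes. They share the same libraries, so these are not 6 independent results. Igkc differed by 1.27 ± 0.57 (log2 fold change ± SE, adjusted p = 0.195) and Iglc2 by 1.14 ± 0.47 (adjusted p = 0.136), and these 2 had an unadjusted p under 0.05. Igha differed by 1.42 ± 0.93 (adjusted p = 0.397), Jchain by 1.08 ± 0.76 (0.434), Ighm by 1.35 ± 1.29 (0.577) and Ighg2b by 2.34 ± 1.48 (0.377). For Igha and Igkc, 4 of 6 aged KO libraries lay above all aged WT libraries and 1, replicate 3, below all of them. Without aged KO replicate 2 the difference was 0.34 for Jchain, 0.75 for Igha and 1.59 for Ighg2b. The Ighm difference was -0.12 without aged KO replicate 1 and 2.21 without aged WT replicate 2, and that of Ighg2b was 4.58 without aged WT replicate 3. DESeq2 called 0 of the 6 members it gave an adjusted p. Ighg1, Ighg2c, Ighg3 and Iglc1 did not pass the filter on low counts and were not tested. Their means in aged WT and aged KO were 0.278 and 20.7 CPM for Ighg1 and 0.267 and 8.01 for Ighg2c. For Ighg3 the means went the other way, at 4.06 and 0.0216 CPM, and for Iglc1 they were close, at 4.63 and 4.75.

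In the young mice 0 of the 4 members tested passed, beside 0.197% of 13174 genes, and 0 had an unadjusted p under 0.05. Ighm differed by 0.83 ± 0.72, Igkc by 0.14 ± 1.16, Iglc1 by -0.29 ± 0.67 and Iglc2 by -1.24 ± 0.69 (adjusted p = 1 for each in edgeR's test). DESeq2 also called 0 of these 4. The first pair rested on young KO replicate 4, without which Ighm differed by -0.35 and Igkc by -1.54; without young WT replicate 3 Igkc differed by -0.26. The median over the 4 was -0.07 beside -0.0003 over all genes. The other 6 members were not tested.

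The difference between the KO effects at the 2 ages passed for 0 of 7 members, beside 0.302% of 15869 genes, with 1 unadjusted p under 0.05 and 0 called by DESeq2. That 1 was Iglc2, at 2.42 ± 0.93 (adjusted p = 0.451). Igkc gave 1.12 ± 1.19 and Jchain -1.21 ± 2.32 with adjusted p of 0.888 and 0.95 in edgeR's test. Without young KO replicate 4 the Jchain value was 1.0. The SE of Igha, at 8.3, was larger than its value of 1.17, and its young libraries held at most 2 counts each.

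**Figure D4:**
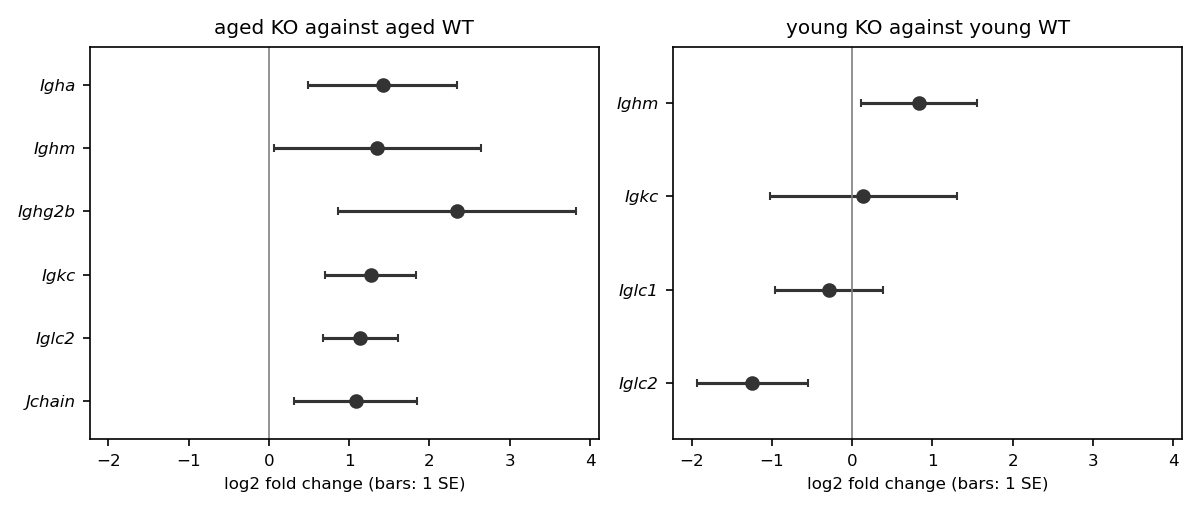
Log2 fold change of KO against WT within each age for the members tested, 6 in aged and 4 in young mice, with bars of 1 SE. All 6 aged values lie above 0 and none passed the test; the young values lie on both sides of 0.

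Between the ages, 4 of 7 members tested passed in WT, where 68.1% of all 15869 genes tested were called. Igha, Igkc and Jchain were called higher in aged WT, and Iglc2 lower. In KO, 4 of 7 were called higher, beside 69.9% of all genes: Igha, Igkc, Jchain and Ighg2b. The member levels at each age were known when the set was made, and a call is the usual outcome here, so nothing is read from these counts. Igha, Ighg2b and Jchain were too low to be tested among the young libraries and passed the filter through the aged ones, so the filter itself selects for a difference between ages, and their sizes below are a description with no p. These comparisons share their libraries with the KO comparisons.

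Igkc differed by 2.83 ± 0.91 in WT (adjusted p = 0.0111) and by 3.95 ± 0.94 in KO (adjusted p = 0.00133), with 6 of 6 aged WT libraries above all young WT and 5 of 6 aged KO above all young KO. Without young WT replicate 1 the Igkc value in WT was 3.5, and without young KO replicate 4 the value in KO was 5.57. Jchain differed by 6.67 ± 1.44 in WT and 5.46 ± 1.13 in KO, and in KO by 7.66 without young KO replicate 4, 4.70 without aged KO replicate 2 and 4.86 without young KO replicate 3. Ighg2b differed by 7.16 ± 2.33 in KO, which became 6.42 without aged KO replicate 2 and 8.72 without young KO replicate 1. In WT it differed by 5.36 ± 2.77. It was not called there by edgeR and was called by DESeq2. Nothing is read from either, since this gene was too low to be tested among the young libraries. Iglc2 differed by -1.93 ± 0.65 in WT (adjusted p = 0.0119), which became -1.48 (adjusted p = 0.0667) without young WT replicate 1, and by 0.49 ± 0.66 in KO (adjusted p = 0.517).

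Where counts were few, pooled counts over the group totals give the ratio with its counting interval. Igha held 11696 counts over the aged WT libraries and 3 over the young, a ratio of 1969 (95% interval 674 to 9552, counting error only). In KO the 36408 and 4 counts gave 4354 (1700 to 15980). The fitted log2 values of 10.65 and 11.82 for this gene depend on the prior count and are no bound. Without young WT replicate 1 the WT value was 11.76, without young WT replicate 4 it was 9.94, without young KO replicate 1 the KO value was 12.42 and without aged KO replicate 2 it was 11.15. Against a floor of 3 counts over the group, Ighg3 in WT was at least 64.8-fold higher in the aged group through replicate 4 alone, Ighg1 in KO at least 263-fold through replicate 1, and Ighg2c in KO at least 141-fold, mainly through replicate 4. The bounds for Ighg1 and Ighg2c in WT were 3.87-fold and 3.71-fold, and Ighg3 in KO was at or under the floor at both ages. Ighm differed by 0.62 ± 1.29 in WT and 1.14 ± 1.26 in KO, and Iglc1 by 1.75 ± 1.87 and 2.13 ± 1.89, with adjusted p from 0.326 to 0.685. Ighm was at -0.23 without aged WT replicate 2 and at -0.33 without aged KO replicate 1, and Iglc1 at -2.92 and -1.54 without replicate 2 of each genotype.

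Genes of other cell types were also called between the ages, and each count below stands beside the 68.1% (WT) and 69.9% (KO) of all genes called. The summed level of 18 granulocyte and monocyte genes ran from 6161 to 11710 CPM in the young libraries and from 712 to 1473 in the aged; 16 of 18 were called lower in aged WT and 17 of 18 in aged KO. S100a8, a neutrophil calprotectin subunit, differed by -5.47 ± 0.95 in WT (adjusted p = 7.72e-05). Of 25 B cell genes tested outside the immunoglobulin loci, 19 were called lower and 3 higher in aged WT, and 17 lower and 3 higher in aged KO, with medians of -2.06 and -1.70 beside 0.05 and 0.04 over all genes. Of the other lists, the early B cell and recombination genes had 2 called higher and 5 lower of 10 tested in each genotype, and the T and NK cell genes 1 higher and 4 lower of 6. Of 12 erythroid genes 0 were called higher and 9 lower in WT, and 1 higher and 7 lower in KO. Of 8 mast cell, basophil and eosinophil genes 2 were called higher and 1 lower in WT, and 3 and 0 in KO, while of 14 LT-HSC genes 10 and 11 were called higher and 0 lower. The part of these cells in the members' levels was not tested, and in bulk libraries fewer cells of a type cannot be told apart from less RNA per cell.

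Several B cell defining genes were at or near 0 in the aged libraries. The 27 B cell genes summed to 871 to 1210 CPM in the young and 545 to 1118 in the aged libraries. Pax5, the B lineage transcription factor, was at 0 counts in all 12 aged libraries and reached 0.652 CPM in young WT. It was near the floor in the young too, at 0 to 6 counts in young WT and 0 to 3 in young KO. Of these, 1 of 4 young WT and 2 of 4 young KO libraries were at 0. Ms4a1, encoding CD20, was 0.479 to 8.64 CPM in young WT and 0 to 3.19 in young KO, against at most 0.376 in the aged libraries. The young KO range thus overlapped the aged one. Fcmr, the IgM Fc receptor, was 0.838 to 11.2 CPM in young WT and 1.46 to 4.15 in young KO, while 10 of 12 aged libraries had 0 counts, 5 of each genotype. Cd79a, a subunit of the B cell receptor that plasma cells keep in part, was 1.79 to 29.5 CPM in young WT, 5.12 to 10.6 in young KO, 0.260 to 1.17 in aged WT and 0.388 to 4.12 in aged KO. Cd79b, its partner subunit, was not near 0, at 64.5 to 82.9 CPM in the young and 30.4 to 41.0 in the aged libraries.

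Plasma cell genes outside the immunoglobulin loci did not lie higher in the aged libraries as a list. The 29 listed genes summed to 2592 to 3624 CPM in young WT, 2892 to 3212 in young KO, 2035 to 2644 in aged WT and 2088 to 2290 in aged KO, and 0 of them were at 0 in all libraries of a group. The sum was carried by genes high in every library, such as Hsp90b1, Spcs2 and Xbp1 (means of 384, 337 and 278 CPM). Mzb1, Irf4, Slamf7 and Tnfrsf17 averaged 1.19, 0.531, 0.379 and 0.105 CPM over all libraries. The sum therefore cannot show whether such low genes moved. Of 25 tested, 3 were called higher and 15 lower in aged WT, and 3 higher and 12 lower in aged KO, beside 68.1% and 69.9% of all genes called in either direction, with medians of -0.55 and -0.46. Xbp1, an unfolded protein response factor that plasma cells need, was 177 to 420 CPM over all 20 libraries. Tnfrsf17, encoding the plasma cell receptor BCMA, held at most 6 counts in any library and was at 0 in 3 of 6 libraries of each aged genotype. Mzb1, a chaperone of antibody secretion, was 0.253 to 1.23 CPM in aged WT and 0.301 to 3.99 in aged KO, against 0.120 to 1.93 in young WT and 1.10 to 2.19 in young KO.

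In aged KO against aged WT, 1 of 23 plasma cell genes was called higher and 2 lower, beside 11.7% of all genes called in either direction. The list was thus called at about the rate of all genes, and nothing is read about it. The genes called were Fkbp11, an endoplasmic reticulum isomerase, by 0.32 ± 0.08, Edem2 by -0.18 ± 0.05 and Tent5c by -0.85 ± 0.12 (adjusted p = 0.0146, 0.031 and 0.000302 in edgeR's test). Mzb1 differed by 1.15 ± 0.55 (adjusted p = 0.211). Of 15 B cell genes tested, Ciita, H2-Ab1 and Ralgps2 were called higher and Cd72, Cd37 and Fcer2a lower, beside the same 11.7%. Ciita and H2-Ab1, of class II antigen presentation, differed by 0.71 ± 0.16 and 0.66 ± 0.17. Cd79a differed by 0.95 ± 0.49 (adjusted p = 0.246). In young mice 0 of 23 plasma cell genes were called, and 1 of 21 B cell genes, H2-Ab1 at 0.60 ± 0.11 (adjusted p = 0.0446). Of all genes tested in young mice 0.197% were called. The summed granulocyte genes overlapped between the aged genotypes, at 788 to 1375 CPM in WT and 712 to 1473 in KO.

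How the members moved together was read across libraries within an age, as a description without a test, since they share library, depth and scaling. Over the 12 aged libraries the log2 level of Igkc had a Spearman rho of 0.986 with Igha and 0.972 with Jchain (Pearson r 0.861 and 0.853), and Jchain had an r of 0.982 with Igha. Each of these held within aged WT and within aged KO, with r from 0.902 to 0.983. Ighm did not go with them as closely: its r in aged libraries was 0.495 with Igkc, 0.463 with Jchain and 0.397 with Igha, and within aged WT alone it was 0.128, -0.179 and -0.266. Ighg2b had an r of 0.346 with Igkc and 0.134 with Igha, which were 0.09 and 0.65 without the 2 libraries farthest from the median on Igkc or Igha. Iglc2 had an r of 0.851 with Igkc, and 0.668 without 2. Aged KO replicate 3 widened these ranges. Without the 2 libraries farthest from the median on Igkc, aged KO replicates 1 and 2, r was 0.851 with Igha and 0.811 with Jchain. Replicate 3 stayed in for both of these values. Without the 2 libraries farthest on Jchain, aged KO replicates 2 and 3, the r of Jchain with Igha was 0.932.

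Over the 8 young libraries Igkc had an r of 0.880 and a rho of 0.976 with Ighm, and an r of 0.826 with Iglc2, close to its value with Iglc2 in the aged libraries. Its r with Jchain was 0.644, and 0.0477 when the 2 farthest libraries were left out, one of them young KO replicate 4. Igha in the young libraries held at most 2 counts, so its r of -0.186 with Igkc is no finding. The share of the 10 members taken by Igkc was 30.2% to 54.2% in the aged libraries and 7.75% to 47.4% in the young.

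The summed members ran from 17.0 to 98.7 CPM in young WT, from 29.9 to 232 in young KO, from 197 to 657 in aged WT and from 121 to 2346 in aged KO, at most 0.236% of all counts. Across libraries of one age the sum had an r of 0.975 (aged) and 0.981 (young) with the summed variable segments. With the summed level of the plasma cell list (log2) it had an r of 0.259 over the aged and 0.699 over the young libraries, and 0.085 in the aged libraries without the 2 farthest. That list sum was carried by genes high in every library, so its r says little about the low genes of the list. The summed mast cell, basophil and eosinophil genes had a higher r with the summed members. It was 0.608 (rho 0.175) over the aged and 0.915 (rho 0.905) over the young libraries, and 0.403 and 0.81 without the 2 farthest. Prg2 is on both this list and the plasma cell list. Alone it had an r of 0.298 over the aged and 0.727 over the young libraries. The summed early B cell and recombination genes had an r of -0.532 over the aged libraries and -0.832 without the 2 farthest. Within aged WT it was -0.721, within aged KO -0.4, and over the young libraries -0.0812. Myb, Sox4 and Cd24a, high in every library, carried this sum (means of 384, 251 and 227 CPM). Rag1, Rag2 and Igll1 averaged 0.0189, 0.185 and 1.18 CPM over all libraries. The r of this sum therefore says little about the low genes of its list. The part of mast cells, basophils, eosinophils and early B cells in the members' levels was not tested. Among single plasma cell genes in the aged libraries, r was 0.830 for Pou2af1, a coactivator of immunoglobulin transcription, 0.815 for Mzb1 and 0.793 for Slamf7, a surface receptor, and these 3 held 0 to 62 counts per aged library. Among well expressed ones r was 0.804 for Edem1, of endoplasmic reticulum protein disposal, at a mean of 67.2 CPM over all libraries, and 0.693 for Txndc5, a disulfide isomerase, at 240.6 CPM. Over the young libraries Edem1 and Txndc5 had -0.0172 and -0.11. Within aged WT alone they had 0.674 and 0.247, and within aged KO 0.835 and 0.823. Pou2af1, Mzb1, Slamf7, Edem1 and Txndc5 had the highest r of the plasma cell list in the aged libraries. Others of the list were negative there, among them Eaf2 (-0.514), Sec11c (-0.351), Edem2 (-0.346), Tent5c (-0.318) and Tnfrsf13b (-0.27). Cd79a had an r of 0.805 in the aged libraries, 0.146 (rho 0.771) within aged WT, 0.936 (rho 0.943) within aged KO and 0.694 in the young. Xbp1 and Prdm1 had -0.0792 and 0.112 in the aged libraries. The library total had an r of 0.126 in the aged libraries and -0.0584 in the young.

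**Figure D5:**
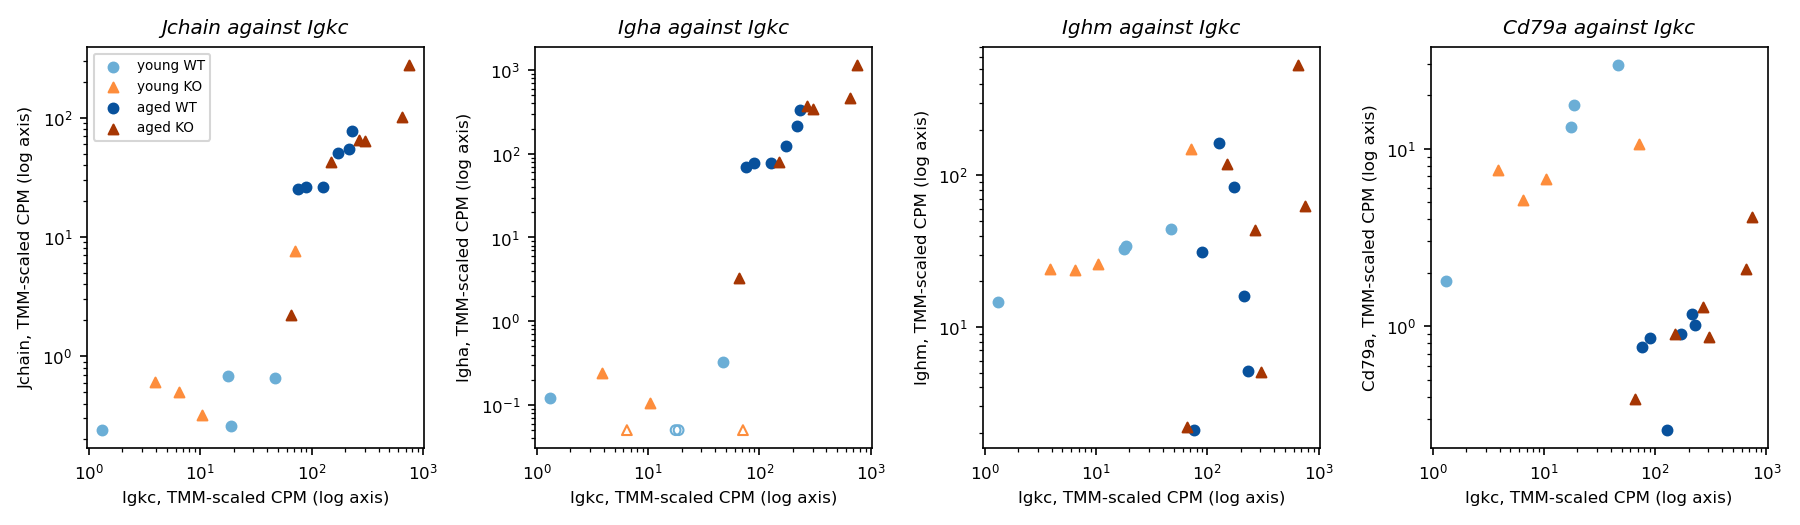
Jchain, Igha, Ighm and Cd79a against Igkc, in TMM-scaled CPM on log axes, 1 point per library; open markers are counts of 0, drawn at the bottom. Jchain and Igha climb with Igkc in the 12 aged libraries, Ighm follows Igkc in the young but scatters in the aged, and Cd79a forms separate young and aged sets.

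To find the genes most like Igkc and Jchain, log2 levels were centred within each of the 4 groups and correlated over all 20 libraries with 15825 tested genes outside the immunoglobulin segments. Igkc and Jchain had an r of 0.744 with each other. The 10 most like Igkc were Gm43513, Gatc, Cd79a, Ptpn1, Ms4a4c, Fhl1, Srd5a1, Blk, Hmces and Gm12242, with r from 0.850 to 0.749. Among the 10 most like Jchain were Gm43513, Fcgr2b, Tpm4, Gm10101, Slc35c2, Slc39a1, Hp, Cpa3 and Trim7, with r from 0.757 to 0.667. Cd79a and Blk, a B cell kinase, are B cell genes by background; Gm43513 averaged 1.21 CPM. The top 10 were not stable: of the 10 most like Igkc, 1 remained when only the aged libraries and 1 when only the young were used, and for Jchain 2 and 0 remained. In the aged libraries alone Pou2af1 (r = 0.822) and Mzb1 (r = 0.801) were among the 10 most like Igkc.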

How the data were processed

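RNA was measured in sorted LT-HSCs with the SMART-Seq v4 low-input kit, per the labels. The authors deposited raw counts per Ensembl gene in 1 table per age, with 53379 genes each, and every column matched a library; per the submitters' processing notes, bcl2fastq 2.20.0.422, STAR, featureCounts and DESeq2 1.20 were used with build GRCm38. Annotation release, strand setting and treatment of reads with several matches are not given in the sources used here. Of the gene IDs, 99.8% matched GENCODE M21, used for positions, lengths and sequences.

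The members and gene lists were chosen with earlier results of these data known. Genes passing filterByExpr were tested in edgeR 4.0.16 (R 4.3.3) by a two-sided quasi-likelihood F test with robust fitting and TMM factors. The threshold was 0.05 after Benjamini-Hochberg adjustment across the whole table. KO comparisons were fitted within an age, the others over all 4 groups. Log2 levels used a prior count of 2. The naming rule took all 10 members, per list the 6 with the highest mean and up to 6 called by p, the 10 genes most like Igkc and Jchain, and each library's leading variable segment; Tnfrsf17, Pax5, Fcmr, Blk, Mzb1, Pou2af1, Slamf7, Prdm1, Edem1, Txndc5, Ralgps2 and the second segments were added as defining markers or after their values were seen. The test was checked on simulated counts. Alternatives were other scalings, no filter, DESeq2 1.42.0, a replicate block, 1 fit of all groups and leaving out each library; leaving out aged KO replicates 5 and 6 together was chosen after the data were seen. Some genes of the lists are not reported here.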

Additional observations from a re-analysis of the deposited data

Results flagged for a closer look

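In 14 of the 38 sets of 4 to 6 libraries examined (each member and the summed members in each group), 1 library stood farther from its neighbours than Dixon's 95% limit. That limit flags about 1 in 20 sets of independent, normally distributed values. Levels here are bounded at 0, some sets were mostly 0, and the sum contains the members. The share flagged can therefore not be set against 1 in 20. All flagged libraries were the highest of their group. Young KO replicate 4 stood apart for Igkc at 71.1 CPM, Ighm at 149.9, Jchain at 7.57 and the summed members at 232.1, against at most 10.4, 26.1, 0.608 and 40.2 in the other 3. Aged KO replicate 1 stood apart for Ighm at 530.8 and Ighg1 at 124.4 CPM. Aged KO replicate 2 stood apart for Jchain at 274.9 and Iglc1 at 26.7, and aged KO replicate 4 for Ighg2c at 46.4 CPM. Among aged WT libraries the values were 1.67 for Ighg1 in replicate 1, 26.9 for Iglc1 in replicate 2, 30.7 for Ighg2b in replicate 3 and 24.4 for Ighg3 in replicate 4. Ighg2b in young KO replicate 1 was at 0.729 CPM, from 6 counts.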

How the results depend on the processing

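Of 916 recomputed values, 895 kept their direction and side of the threshold or, without a test, stayed within the spread. With the replicate block, 0 members were called in aged KO against aged WT, in young KO against young WT and for the difference between ages, as without it, while Igkc in young mice went to -0.0116 and Ighm in the difference to -0.0485. Same-numbered WT and KO libraries had correlations of -0.253 to 0.186 (aged) and -0.229 to 0.133 (young) and 2 of 10 matched their own number best, so the numbers were not taken as pairs. Leaving out single libraries turned directions over these ranges: Ighm from -0.12 to 2.21 in aged KO against WT, from -0.35 to 1.08 in young, from -0.95 to 1.69 in the difference, from -0.23 to 0.88 between ages in WT and from -0.33 to 2.32 in KO; Iglc1 from -0.88 to 0.48 in young, from -3.30 to 5.06 in the difference, from -2.92 to 2.51 between ages in WT and from -1.54 to 2.72 in KO; Igkc from -1.54 to 0.84 in young, with -0.26 without young WT replicate 3; Jchain from -1.96 to 1.0 in the difference. Iglc1 in the difference was -0.38 without young WT replicate 4. The lists of genes most like Igkc kept 1 and 1, and those most like Jchain 2 and 0, of 10 names with aged or young libraries alone, and the cause was not tested. The members called between ages in WT numbered 3 without young WT replicate 1 and 5 with DESeq2, against 4.

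Counts over all genes moved more: in young mice 26 calls became 97 without a filter, 103 with DESeq2, 9 with the replicate block, 55 in 1 fit of all groups and 2 to 19 with 1 library left out. For the difference between ages 48 became 135 with DESeq2, 30 with the block, 121 without aged KO replicates 5 and 6 and 12 to 74 with 1 library left out. Scaling by totals alone moved the median of all genes between ages from 0.05 to 0.17 in WT and from 0.04 to 0.16 in KO, and no filter moved both to 0.20. In the young libraries Igha, Jchain and the IgG genes mostly held fewer than 10 counts, which limits the precision of their ratios; the deepest library of all, young KO replicate 3 with 19297867 counts, held 2 of Igha. Untested members rest on 1 or few libraries.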
